A study of Mus musculus with 10 samples.

Results

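Myostatin and activin signaling was examined in mouse skeletal muscle through 9 genes, taken by name for their roles in the pathway: the ligand gene Mstn, the antagonist genes Fst and Fstl3, the type II receptor genes Acvr2a and Acvr2b, the type I receptor gene Acvr1b, the signal transducers Smad2 and Smad3, and the inhibitory Smad7. Of these, 8 were among the 16112 genes with counts, and Fstl3 was not analysed here. RNA was sequenced from whole extensor digitorum longus (EDL, 3 libraries), psoas (3 libraries), and soleus (4 libraries), where EDL and psoas are fast muscles and soleus is a mixed slow muscle. All 10 libraries came from animals labelled wild type of the strain B6C3Fe a/a-Ttnmdm/J, a stock that carries the mdm allele of titin. Neither treatment nor genotype differed between the muscles. Both sexes were used: 5 libraries were from males and 4 from females, and the sex for soleus 3 is not given. The mice were between 32 and 54 days old: 42, 54, and 44 days for EDL 1 to 3 and for psoas 1 to 3, and 42, 44, 32, and 44 days for soleus 1 to 4. The question asked of the data was whether the genes of this pathway are expressed at different levels in the 3 muscles.

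Myostatin is a secreted member of the TGF-beta family made mainly by skeletal muscle fibers, and animals that lack it have enlarged muscles. It and the activins bind a type II receptor (Acvr2b or Acvr2a), which recruits and phosphorylates a type I receptor such as Acvr1b (ALK4). This receptor phosphorylates Smad2 and Smad3, which enter the nucleus with Smad4 and regulate transcription. Follistatin (Fst) and the related Fstl3 bind the ligands outside the cell and keep them from the receptors, and Smad7 is induced by the pathway and dampens it.

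Promoter sequences are shown for Mstn and Acvr1b, since these genes differed between soleus and each of the fast muscles. Both come from RefSeq (GRCm38.p6). Upstream windows were searched for 5 of the 8 genes (Mstn, Acvr2a, Acvr2b, Acvr1b, and Smad3) and not for Fst, Smad2, or Smad7. The windows end at the base before the annotated start and are written 5′ to 3′ on the plus strand, the strand of both genes. The Mstn window is chr1:53061390-53061639 (250 bases), and the Acvr1b window is chr15:101173822-101174066 (245 bases). Capitals mark the E-box CANNTG, the motif bound by myogenic and other basic helix-loop-helix factors.
Mstn: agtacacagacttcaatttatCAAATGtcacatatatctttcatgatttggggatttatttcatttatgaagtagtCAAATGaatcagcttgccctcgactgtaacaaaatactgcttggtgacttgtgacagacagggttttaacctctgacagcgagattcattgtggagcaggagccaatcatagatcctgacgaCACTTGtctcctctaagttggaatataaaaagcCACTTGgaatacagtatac
Acvr1b: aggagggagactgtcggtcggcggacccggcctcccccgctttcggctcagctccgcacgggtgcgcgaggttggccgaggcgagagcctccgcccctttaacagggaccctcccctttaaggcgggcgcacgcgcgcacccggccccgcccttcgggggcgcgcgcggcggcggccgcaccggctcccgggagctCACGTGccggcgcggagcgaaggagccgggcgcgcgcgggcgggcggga

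The Mstn window held 4 E-boxes, starting 229, 174, 52, and 19 bases before the gene. The pair farther from the gene reads CAAATG and the nearer pair CACTTG. Among 32851 RefSeq upstream windows of 250 bases, 66.2% held at least 1 E-box on either strand and 3.84% held at least 4. The same window held 1 TATAAA, which 12.4% of all windows hold, and 2 matches to CAGAC, a Smad-binding element that 42.2% hold, with both strands searched. The Acvr1b window held 1 E-box, CACGTG, and no match to TATAAA or CAGAC. The windows of Acvr2a, Acvr2b, and Smad3 held no E-box. A MEF2-type motif, CTA and TAG separated by any 4 bases, is held by 3.2% of all windows. Among the pathway gene windows searched here, only that of Acvr2b had it. These matches describe letters in short windows and not bound sites.

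The libraries held from 12737971 counts (soleus 3) to 50431713 counts (psoas 1). Low counts, such as those of Acvr2b, are less precise in the shallower libraries, which are found in each muscle. Depth was not balanced, since the deepest library held 26848423 counts in soleus, 47825953 in EDL, and 50431713 in psoas. The median was 15644394.5 counts in soleus, 44147498 in EDL, and 21923831 in psoas. The markers matched the muscle labels: the summed level of 6 slow fiber genes was between 15891 and 26521 normalized CPM (CPM, read counts scaled to a common library size, here with TMM factors) in soleus, against 56.7 to 311 in EDL and 28.2 to 63.4 in psoas. The sum of 7 fast fiber genes was between 10870 and 16339 normalized CPM in soleus, against 64483 to 93687 in EDL and 90669 to 94693 in psoas. The sum of 8 tendon genes was 755 to 825 normalized CPM in EDL, 31.9 to 83.1 in psoas, and 112 to 527 in soleus. The sum of 7 genes of fibro-adipogenic cells was 1537 to 2989 normalized CPM in EDL, 613 to 968 in psoas, and 655 to 1151 in soleus. The matrix genes Col3a1 and Dcn made up most of this sum in every library (1665 and 1029 of 2989 in EDL 1). No gene of these 4 lists was at 0 in every library of a muscle. The reads of EDL 1 and 2 and psoas 1 and 2 were trimmed before alignment and those of the other 6 libraries were not, so that soleus has no trimmed library. The labels hold 7 animal codes, and 3 of them cover 2 libraries each, so that the libraries are not all from separate mice. The study's methods state fewer mice than there are codes, so that different codes may also stand for the same mouse. p-values therefore measure the spread between these libraries.

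A gene was called different between a pair of muscles when the quasi-likelihood test of edgeR gave a Benjamini-Hochberg adjusted p below 0.01, over all 16112 genes, together with a change of more than 2-fold. Between soleus and EDL, 2 of the 8 pathway genes were called, against 5.77% of all genes, and both were lower in soleus (Mstn and Acvr1b). Of all genes, 2.18% were called lower and 3.59% higher in soleus. Between soleus and psoas, 3 of 8 were called, against 5.69% of all genes: Mstn and Acvr1b were lower (2.71% of all genes) and Fst was higher (2.99%) in soleus. Between psoas and EDL, edgeR called 0 of 8, against 2.11% of all genes (0.540% higher and 1.57% lower in psoas). In that comparison 3 of the 8 (Fst, Acvr2b, and Smad3) had an unadjusted p below 0.05, as did 29.0% of all genes, and DESeq2 called 2 (Fst and Smad3), among 1095 of the 16112 genes, and limma-voom 0, among 353. The median log2 fold change of the 8 genes was 0.15 for soleus against EDL, -0.53 for soleus against psoas, and 0.08 for psoas against EDL, beside -0.05, 0.02, and 0.01 for all genes. The libraries of the muscles compared did not overlap for 3, 6, and 3 of the 8 genes in these comparisons, beside 29.5%, 25.8%, and 29.6% of all genes. In bulk tissue, fewer cells of a type and less RNA per cell cannot be told apart.

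**Figure D1:**
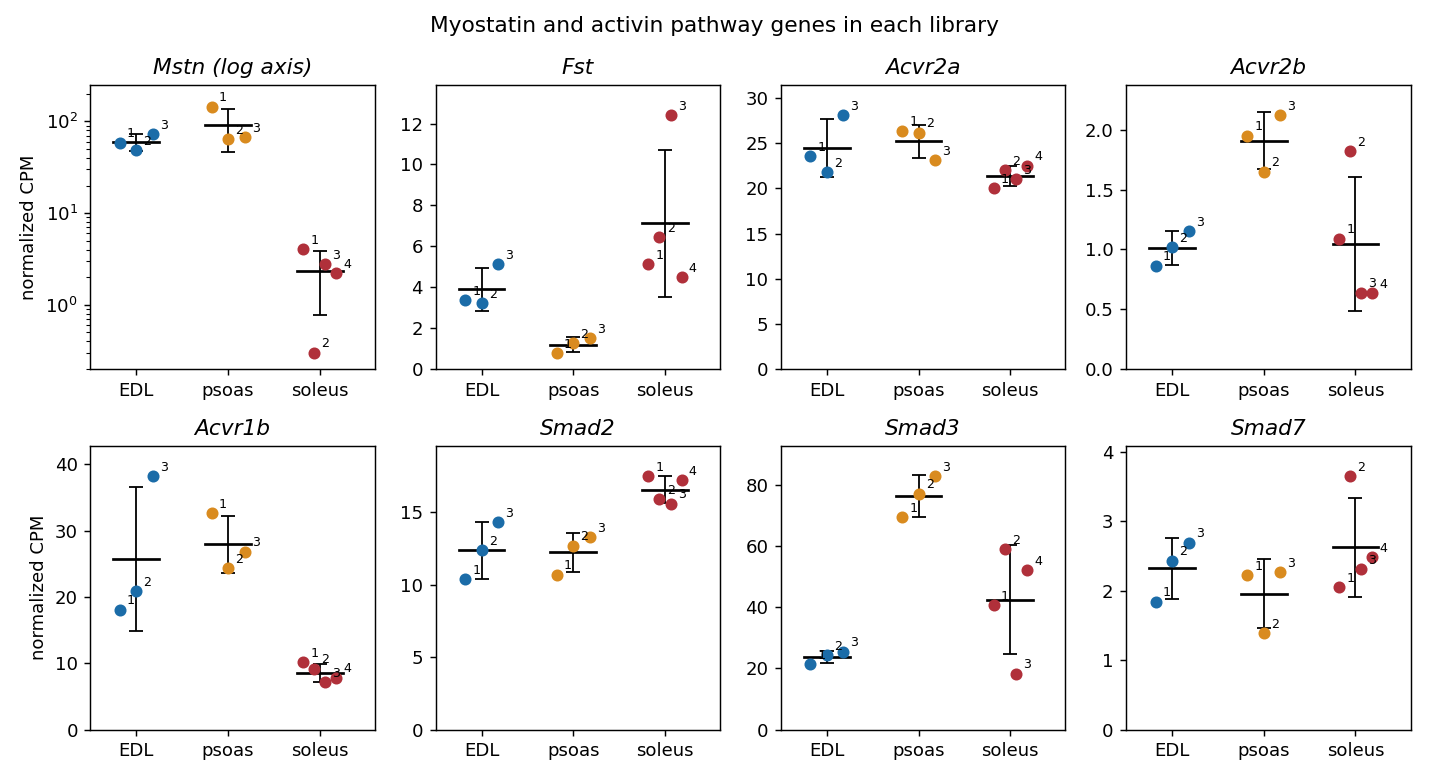
Normalized CPM of the 8 pathway genes (vertical axes, 1 panel per gene, log axis for Mstn) in each library of EDL, psoas, and soleus (points, numbered by replicate), with the mean (line) and SD (bars). Every soleus point lies below every EDL and psoas point for Mstn and Acvr1b, and psoas stands apart from EDL for Fst, Acvr2b, and Smad3.

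Mstn (chromosome 1, 53061640 to 53068079, GRCm38), the ligand gene, was far lower in soleus than in either fast muscle. Its level was 58.3, 48.3, and 72.8 normalized CPM in EDL 1 to 3 and 145, 64.3, and 67.5 in psoas 1 to 3. In soleus 1 to 4 it was 4.04, 0.299, 2.79, and 2.22 normalized CPM. All soleus libraries were thus well below all others, soleus 2 was the lowest, and EDL and psoas overlapped. The soleus values rest on 59, 10, 35, and 42 counts, and those of the fast muscles on 953 counts or more. Mstn was 26.9-fold lower in soleus than in EDL (log2 fold change -4.75, SE 0.60, edgeR adjusted p = 0.000503) and 41.7-fold lower than in psoas (-5.38, SE 0.61, adjusted p = 0.000272). Both calls were made in all 24 alternative fits, with adjusted p from 2.5e-09 to 0.00275 against EDL and from 5.71e-12 to 0.00193 against psoas. The log2 fold change was larger in limma-voom (-5.52 and -6.04), with the animal code as a random effect (-5.74 and -6.05), and with the term for trimming and age (-5.68 and -6.30). Among the untrimmed libraries alone, the log2 ratio of the mean of the 4 soleus libraries was -4.96 to EDL 3 and -4.85 to psoas 3. Psoas and EDL differed by 0.63 (log2, SE 0.56, 95% interval -0.59 to 1.85, edgeR adjusted p = 0.491). Psoas 1 was the highest library, and within the untrimmed pair psoas 3 was below EDL 3 (log2 ratio -0.11), whereas the trimmed pairs gave 0.98.

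The 3 genes whose log2 CPM was most correlated with that of Mstn over the 10 libraries, of 12664 genes with a symbol and a mean of at least 1 CPM, were Cacna2d4, an auxiliary calcium channel subunit (Pearson r = 0.991), Myh4, the fast 2B myosin heavy chain (0.990), and Myl1, a fast myosin light chain (0.980). Cacna2d4 was 6.59 to 7.61 normalized CPM in EDL, 6.78 to 13 in psoas, and 0.0897 to 0.616 in soleus. Myh4 was 1559, 113, 1692, and 1548 normalized CPM in soleus 1 to 4, against 38374 to 54886 in EDL and 50083 to 56666 in psoas. Soleus 2 was therefore the lowest library of both Mstn and Myh4. The 10 points fall into a soleus cluster and a cluster of the fast muscles, so r is given as a description of that separation. The fast fiber sum, which includes Myh4, was also lower in soleus. Of its genes, Myh4, Pvalb, and Mylpf were called lower in soleus against EDL, and Tnnt3, Tnni2, Tnnc2, and Atp2a1 were not called. The part of fast fibers in the Mstn difference was not tested.

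**Figure D2:**
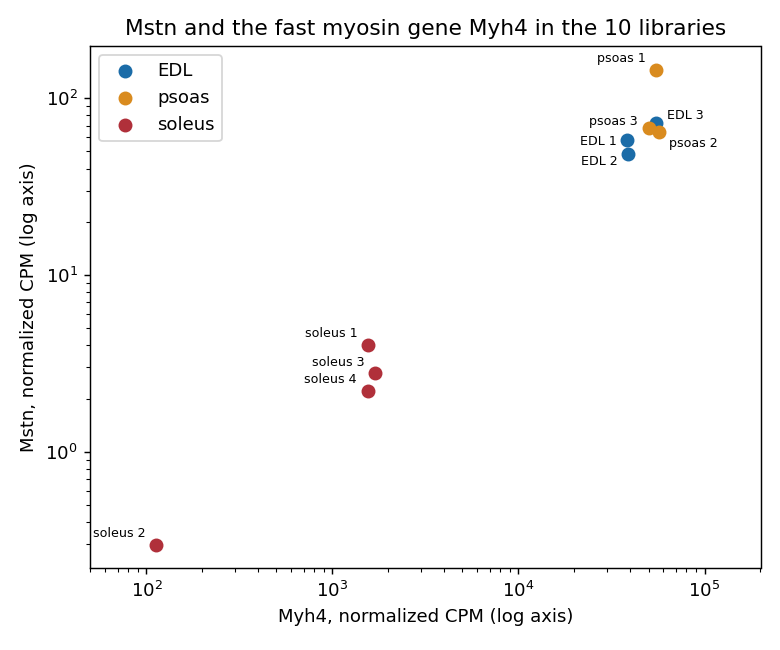
Normalized CPM of Mstn (vertical, log axis) against that of Myh4 (horizontal, log axis) in the 10 libraries, each point 1 library colored by muscle. The fast muscles form 1 cluster at the upper right, and soleus 2, with 0.299 for Mstn and 113 for Myh4, lies below the other soleus libraries on both axes.

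Fst (chromosome 13, 114452290 to 114458951), which encodes the antagonist follistatin, was lowest in psoas. Its level was 0.765, 1.27, and 1.49 normalized CPM in psoas 1 to 3, 3.36, 3.22, and 5.11 in EDL 1 to 3, and 5.13, 6.43, 12.4, and 4.49 in soleus 1 to 4. Every psoas library was below every other library, soleus 3 was the highest, and EDL 3 lay inside the range of soleus. The psoas values rest on 29, 20, and 21 counts. Fst was 6.19-fold higher in soleus than in psoas (log2 fold change 2.63, SE 0.41, edgeR adjusted p = 0.00175). This call was made in 19 of the 24 alternative fits (adjusted p from 2.2e-08 to 0.0347). It was missed without psoas 1 (2.33, adjusted p = 0.0116), with a term for read trimming (2.23, adjusted p = 0.0153), with a term for trimming and age (1.87, adjusted p = 0.0347), in the test against a 2-fold change (adjusted p = 0.0186), and, at the threshold itself, with age as a covariate (adjusted p = 0.01). The untrimmed libraries alone gave a log2 ratio of 2.26.

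Psoas was 3.39-fold lower than EDL in Fst (log2 fold change -1.76, SE 0.42, 95% interval -2.68 to -0.84), which missed the call in edgeR (adjusted p = 0.0234) and passed it in DESeq2 (adjusted p = 0.0015), without soleus 3 (-1.79, adjusted p = 0.00742), and with sex as a covariate (adjusted p = 0.00245), a fit that also leaves out soleus 3, whose sex is not given. The log2 ratio was -1.70 within the trimmed libraries and -1.78 between the untrimmed EDL 3 and psoas 3. Between soleus and EDL the difference was 0.87 (SE 0.37, 95% interval 0.07 to 1.67, edgeR adjusted p = 0.116), and 0.11 with the term for trimming and age. It was 0.42 without soleus 3, and 0.30 with sex as a covariate, which also lacks soleus 3. The sums of tendon and fibro-adipogenic genes given above were also lower in psoas than in EDL. Both were lower in soleus than in EDL too, although the mean of Fst was highest in soleus. Of the fibro-adipogenic genes, Pi16 and Dcn were called lower in psoas against EDL, and Pdgfra, Dpt, Ly6a, Lum, and Col3a1 were not called. In soleus against EDL, Pdgfra, Lum, and Dcn were called lower, and the others were not. Between soleus and psoas, the fibro-adipogenic sums overlapped (655 to 1151 and 613 to 968 normalized CPM) and the tendon sum was higher in soleus (112 to 527 and 31.9 to 83.1). The part of these cells in the Fst differences was not tested. An antisense transcript overlaps exons of Fst, and the strand setting of the counting is not stated, so reads of the pair may be mixed.

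The genes most correlated with Fst over the 10 libraries were Il11ra1, a receptor subunit for interleukin 11 (r = 0.966), Rab23, a small GTPase (0.966), and Msh6, a DNA mismatch repair gene (0.965). Il11ra1 was 21.6 to 37.3 normalized CPM in psoas, 45.9 to 54.6 in EDL, and 68.9 to 94.6 in soleus. Each of the 3 genes was lowest in psoas and highest in soleus, as was the mean of Fst. The correlations share the 10 libraries and their 3 muscle groups.

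The type II receptor genes showed smaller differences. Acvr2a (chromosome 2, 48814109 to 48903269) was 23.6, 21.8, and 28.1 normalized CPM in EDL, 26.4, 26.2, and 23.1 in psoas, and 20.0, 22, 21, and 22.5 in soleus. Every soleus library was below every psoas library, by a small margin, while soleus and EDL overlapped. The log2 fold change was -0.20 for soleus against EDL (95% interval -0.49 to 0.10, edgeR adjusted p = 0.328), -0.24 against psoas (-0.54 to 0.06, adjusted p = 0.282), and 0.04 for psoas against EDL (-0.28 to 0.36, adjusted p = 0.88). Acvr2a shares exon sequence with Orc4 on the opposite strand, so part of its count may belong to that gene.

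Acvr2b (chromosome 9, 119402118 to 119434995) was the scarcer type II receptor gene and had its highest mean in psoas. It was 0.864, 1.02, and 1.15 normalized CPM in EDL, 1.95, 1.65, and 2.12 in psoas, and 1.09, 1.82, 0.638, and 0.633 in soleus. Psoas lay above EDL in all libraries, and soleus 2 reached the psoas range while the other soleus libraries did not. These values rest on between 8 and 74 counts per library. The log2 fold change was 0.92 for psoas against EDL (95% interval 0.05 to 1.79, edgeR adjusted p = 0.148), -0.82 for soleus against psoas (-1.63 to 0.00, adjusted p = 0.178), and 0.11 for soleus against EDL (-0.72 to 0.94, adjusted p = 0.862). The log2 ratio of psoas to EDL was 0.94 within the trimmed libraries and 0.88 between the untrimmed ones, and the fitted value was 0.31 with counts thinned to the depth of the shallowest library. Per length of exon, Acvr2a exceeded Acvr2b in every library. The ratio of their FPKM (counts scaled for library size and exon length) was 18.9, 14.8, and 16.8 in EDL, 9.34, 11, and 7.51 in psoas, and 12.6, 8.31, 22.7, and 24.6 in soleus. Psoas was below EDL in this ratio without overlap, soleus 2 lay within the range of psoas, and soleus 3 and 4 were above EDL.

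Acvr1b (chromosome 15, 101174067 to 101213684), the activin type I receptor gene, was lower in soleus than in the fast muscles. It was 18.1, 20.9, and 38.2 normalized CPM in EDL, 32.6, 24.3, and 26.8 in psoas, and 10.2, 9.21, 7.18, and 7.81 in soleus. All soleus libraries were below all others, and EDL 3 was the highest library. Acvr1b was 2.98-fold lower in soleus than in EDL (log2 fold change -1.57, SE 0.25, edgeR adjusted p = 0.00188) and 3.24-fold lower than in psoas (-1.70, SE 0.25, adjusted p = 0.00116). Each call was made in 22 of the 24 alternative fits. A test against a 2-fold change (glmTreat) gave adjusted p = 0.132 and 0.0675, which did not place either change above 2-fold. The untrimmed libraries alone gave log2 ratios of -2.15 and -1.64. Psoas and EDL differed by 0.12 (SE 0.26, 95% interval -0.45 to 0.70, edgeR adjusted p = 0.801).

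The genes most correlated with Acvr1b were Plpp7 (r = 0.980), Strbp, an RNA-binding protein gene (0.978), and Parm1 (0.969), over the same 10 libraries. Parm1 was 1.58 to 2.74 normalized CPM in soleus, 11.6 to 17.9 in EDL, and 16.9 to 30.3 in psoas. Myh4 had r = 0.871 with Acvr1b and ranked 245 of the 12664 genes, whereas it ranked 2 for Mstn. The fast fiber sum was lower in soleus as Acvr1b was, and its part in this difference was not tested.

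Smad2 and Smad3, the transducers downstream of Acvr1b, had different patterns. Smad2 (chromosome 18, 76241580 to 76310963) was 10.4, 12.4, and 14.3 normalized CPM in EDL, 10.7, 12.7, and 13.3 in psoas, and 17.5, 15.9, 15.6, and 17.2 in soleus. Every soleus library was above every other library, and EDL and psoas overlapped. The log2 fold change of soleus was 0.42 against EDL (95% interval 0.09 to 0.76, edgeR adjusted p = 0.0717) and 0.44 against psoas (0.10 to 0.77, adjusted p = 0.0817), so neither was called. Psoas against EDL was -0.01 (-0.37 to 0.34, adjusted p = 0.97).

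Smad3 (chromosome 9, 63646767 to 63757994) was highest in psoas. It was 21.4, 24.4, and 25.4 normalized CPM in EDL, 69.3, 77.0, and 82.8 in psoas, and 40.6, 59.0, 18.3, and 52.0 in soleus. All psoas libraries were above all EDL and soleus libraries, and soleus 3, the shallowest library, was below EDL while the other soleus libraries were above it. Smad3 was 3.21-fold higher in psoas than in EDL (log2 fold change 1.68, SE 0.33, 95% interval 0.96 to 2.41), just outside the threshold in edgeR (adjusted p = 0.0117). It passed in 7 of the 24 alternative fits, among them DESeq2 (adjusted p = 1.44e-05), the fit of the 2 muscles only (0.00226), and the fit without soleus 3 (1.65, adjusted p = 0.000549). The highest adjusted p of the 24 fits was 0.281, in the test against a 2-fold change. The log2 ratio was 1.67 within the trimmed libraries (2 of psoas and 2 of EDL) and 1.70 between the untrimmed ones (1 of each muscle).

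For soleus the log2 fold change of Smad3 was 0.84 against EDL (95% interval 0.17 to 1.52, edgeR adjusted p = 0.0763) and -0.84 against psoas (-1.50 to -0.19, adjusted p = 0.0855). The former was called without soleus 3 (1.03, adjusted p = 0.00446). Per length of exon, the ratio of Smad2 to Smad3 FPKM was 0.307, 0.32, and 0.356 in EDL, 0.0976, 0.104, and 0.101 in psoas, and 0.272, 0.17, 0.538, and 0.209 in soleus. Smad3 was therefore the more abundant of the pair in every library, and most so in psoas, which did not overlap with the other muscles.

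Smad7 (chromosome 18, 75367529 to 75395935), the inhibitory Smad, did not pass the test in any comparison. It was 1.84, 2.43, and 2.69 normalized CPM in EDL, 2.22, 1.39, and 2.27 in psoas, and 2.05, 3.65, 2.31, and 2.48 in soleus. The 3 muscles overlapped, with the highest value in soleus 2. The log2 fold change was 0.20 for soleus against EDL (95% interval -0.41 to 0.81, edgeR adjusted p = 0.64), 0.43 for soleus against psoas (-0.19 to 1.05, adjusted p = 0.363), and -0.23 for psoas against EDL (-0.89 to 0.42, adjusted p = 0.66).

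**Figure D3:**
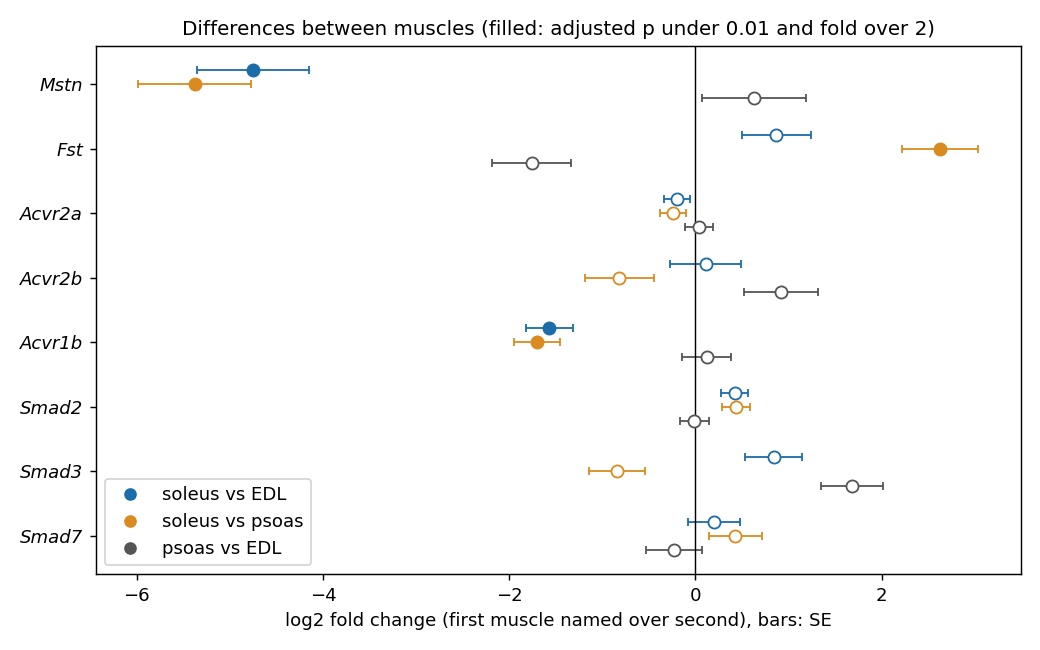
Log2 fold changes (horizontal axis, points, with SE as bars) of the 8 genes in the 3 comparisons of muscles, from edgeR; filled points mark called differences. Filled points are Mstn and Acvr1b below 0 in soleus against EDL and psoas, and Fst above 0 in soleus against psoas.

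The order of the 8 genes by FPKM, which corrects for exon length, differed between the muscles. In EDL, Mstn had the highest mean (21.9 FPKM, libraries from 17.8 to 26.6), followed by Acvr1b (5.76, from 4.02 to 8.54), Acvr2a (4.27, from 3.82 to 4.89), and Smad3 (4.24, from 3.81 to 4.53), and these last 3 overlapped. In psoas, Mstn (34.3, from 24 to 54.4) was followed by Smad3 (13.8, from 12.6 to 14.7), Acvr1b (6.33), and Acvr2a (4.45). In soleus, the order began with Smad3 (7.49, from 3.34 to 10.2), Acvr2a (3.69), Acvr1b (1.91), and Smad2 (1.86), of which Smad3 overlapped Acvr2a and Acvr1b overlapped Smad2. Mstn was in place 6 of the 8 in soleus (0.856 FPKM, from 0.106 to 1.48), below Fst (1.53, from 0.954 to 2.72), which it overlapped. In EDL and psoas, Fst was at 0.84 and 0.256 FPKM, far below Mstn. Acvr2b (0.255 and 0.261 FPKM) was lowest in EDL and soleus, and Fst was lowest in psoas.

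The other genes of the TGF-beta, activin, and BMP pathways were examined with a list of 72, of which 59 had counts. Of these, 5 were called between soleus and EDL (8.47%, beside 5.77% of all genes), 1 higher and 4 lower in soleus. Between soleus and psoas, 6 were called (10.2%, beside 5.69%), all higher in soleus, and between psoas and EDL 3 (5.08%, beside 2.11%), all lower in psoas. The median log2 fold change of the 59 genes was -0.14, 0.27, and -0.23 in these comparisons. None of the 4 other Smad genes, the 12 Smad cofactors and regulators, or the 9 genes of ligand processing and latency was called in edgeR. At an unadjusted p below 0.05 these 3 groups had 1, 5, and 2 genes for soleus against EDL, 0, 5, and 2 for soleus against psoas, and 0, 4, and 5 for psoas against EDL, beside 35.0%, 28.4%, and 29.0% of all genes.

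Of the 7 other ligand genes, Tgfb3 was higher in soleus, at 15.8 to 22.4 normalized CPM, than in EDL (6.12 to 9.01) and psoas (7.23 to 10.5). Its log2 fold change was 1.28 against EDL (SE 0.20, edgeR adjusted p = 0.00174) and 1.06 against psoas (SE 0.20, adjusted p = 0.00469). Tgfb3 encodes a TGF-beta ligand and has annotated transcripts on the opposite strand over its exons. Gdf11, the closest relative of myostatin, was 0.958 to 2.27 normalized CPM in soleus and 4.5 to 4.83 in EDL (log2 fold change -1.57, SE 0.30, adjusted p = 0.0055), and 1.98 to 3.99 in psoas. The inhibin alpha subunit gene Inha was 0.137 to 0.558 normalized CPM in soleus, 1.51 to 2.97 in EDL, and 0.444 to 0.637 in psoas (soleus against EDL -2.56, SE 0.42, adjusted p = 0.00218). The soleus values of Inha rest on 2 to 17 counts. The Tgfb3 call against EDL was lost without EDL 1 or EDL 2 (adjusted p from 0.0122 to 0.0143) and that against psoas without psoas 1, psoas 2, soleus 2, or soleus 3 (from 0.0114 to 0.0231). The Gdf11 call was lost without any 1 of EDL 1, EDL 2, soleus 1, soleus 3, and soleus 4 (adjusted p from 0.0127 to 0.0222), and the Inha call without EDL 1 (0.0114). With a term for trimming, the adjusted p was 0.018 and 0.0372 for Tgfb3 against EDL and psoas and 0.0478 for Gdf11, and with a term for trimming and age it was 0.0321, 0.0534, and 0.146, and 0.0215 for Inha. Age as a covariate also ended the calls of Tgfb3 (0.0109 and 0.0207) and Gdf11 (0.0264), and glmTreat, the test against a 2-fold change, ended those of all 3 genes (from 0.0239 to 1). The Gdf11 call was also lost with thinned counts (0.0136). The fit with sex as a covariate, which lacks soleus 3, ended the calls of Gdf11 (0.0152) and of Tgfb3 against psoas (log2 fold change 0.92). Among the untrimmed libraries, the log2 ratio of soleus to EDL 3 was 1.02 for Tgfb3, -1.65 for Gdf11, and -2.96 for Inha, and that of soleus to psoas 3 was 0.80 for Tgfb3. The activin beta A subunit gene Inhba was not called in edgeR. Its log2 fold change was -3.35 for psoas against EDL (edgeR adjusted p = 0.0119), 2.78 for soleus against psoas (0.0168), and -0.57 for soleus against EDL (0.42). Inhbb, the beta B subunit gene, was not called either.

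Of the receptors and co-receptors, Tgfbr2, the TGF-beta type II receptor, was 43.6 to 75.1 normalized CPM in soleus and 26.1 to 32.1 in psoas (log2 fold change 1.03, SE 0.18, edgeR adjusted p = 0.0036), and 51.0 to 51.2 in EDL. The BMP type I receptor gene Bmpr1b was 10.1 to 16.1 normalized CPM in soleus and 4.25 to 7.63 in psoas (1.21, SE 0.23, adjusted p = 0.00491). Bambi, a pseudoreceptor that blocks signaling, was 0.496 to 0.765 normalized CPM in psoas and 3.24 to 5.99 in EDL (log2 fold change of psoas -2.80, SE 0.48, adjusted p = 0.00682). The Tgfbr2 call was lost without any 1 of psoas 1, psoas 2, soleus 1, and soleus 2 (adjusted p from 0.009 to 0.0203, with changes of about 2-fold or less), and the Bmpr1b call without psoas 2, psoas 3, soleus 1, soleus 2, or soleus 4 (adjusted p from 0.0119 to 0.0193). Leaving out EDL 1, EDL 2, soleus 1, soleus 4, or any psoas library ended the Bambi call (adjusted p from 0.0114 to 0.0263). The terms for trimming and for trimming and age ended the calls of Tgfbr2 (adjusted p = 0.0242 and 0.0212) and Bmpr1b (0.0375 and 0.0307), and glmTreat ended all 3 (1, 0.706, and 0.0547 for Bambi). With DESeq2, with its size factors, and with the animal code as a random effect, Tgfbr2 was not over the 2-fold limit. The Bmpr1b call was also lost with age (0.0173), thinned counts (0.0203), and the fit of the 2 muscles only (0.0117), and the Bambi call with age (0.0126) and in limma-voom (0.0114). The untrimmed libraries gave log2 ratios of 0.88 for Tgfbr2 and 1.20 for Bmpr1b in soleus against psoas, and Bambi in psoas against EDL was -2.48 within the trimmed and -3.59 between the untrimmed libraries.

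Among antagonists and targets, Dcn and Tgfbi were lower in psoas than in EDL. Decorin (Dcn), a matrix proteoglycan that binds TGF-beta and myostatin, was 204 to 383 normalized CPM in psoas, 305 to 376 in soleus, and 727 to 1369 in EDL. It was lower than in EDL in soleus (log2 fold change -1.57, SE 0.26, edgeR adjusted p = 0.00269) and in psoas (-1.70, SE 0.29, adjusted p = 0.00654). Tgfbi, a matrix gene induced by TGF-beta, was 8.18 to 9.35 normalized CPM in psoas, 15.2 to 29.7 in soleus, and 38.8 to 44.1 in EDL, with no overlap between any pair of muscles. Its log2 fold change was -2.22 for psoas against EDL (SE 0.23, adjusted p = 0.000899), which was called in 23 of the 24 alternative fits, -1.02 for soleus against EDL (SE 0.21, adjusted p = 0.00691), and 1.19 for soleus against psoas (SE 0.22, adjusted p = 0.00421). The call of Dcn in soleus was lost without EDL 1, EDL 2, or soleus 4 (adjusted p from 0.0103 to 0.0154), and that in psoas without any single library other than EDL 3 and soleus 3 (from 0.0108 to 0.028). For Tgfbi, the call of soleus against EDL was lost without EDL 1, EDL 2, psoas 2, soleus 1, soleus 3, or soleus 4 (log2 fold change from -1.06 to -0.97), and that against psoas without soleus 2 or any psoas library (from 0.94 to 1.23). In soleus against EDL, Dcn had a log2 fold change of -0.99 with the trimming term (adjusted p = 0.0136) and of -1.08 with trimming and age (0.0277), and its call was also lost with age (0.0201). In psoas against EDL, it was lost with age (0.0119) and in the fit of the 2 muscles only (0.0325). For Tgfbi, the adjusted p was 0.0363 against EDL and 0.0248 against psoas with the trimming term, 0.0315 and 0.012 with age, and 0.014 and 0.0117 in the fit of the 2 muscles only. Against EDL, it was 0.111 with trimming and age and 0.0119 with thinned counts. No call of Dcn or Tgfbi passed glmTreat (from 0.0106 to 1). Psoas against EDL was -1.67 for Dcn and -2.27 for Tgfbi (log2 ratio) within the trimmed libraries and -1.83 and -2.11 between the untrimmed ones. The untrimmed libraries gave -1.05 for Dcn and -1.01 for Tgfbi in soleus against EDL, and 1.11 for Tgfbi against psoas.

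All 10 target genes had a positive log2 fold change in soleus against psoas, with a median of 1.22, and 3 were called (Ccn2, Id3, and Tgfbi), beside 8289 of 16112 positive, a median of 0.02, and 5.69% called over all genes. In psoas against EDL, 1 of the 10 was positive (median -1.30) and 1 was called (Tgfbi), beside 8142 of 16112 positive, a median of 0.01, and 2.11% called. In soleus against EDL, 4 of the 10 were positive (median -0.07) and 1 was called (Tgfbi), beside 7560 positive, a median of -0.05, and 5.77% called. Id3, an inhibitor of basic helix-loop-helix factors, was 4.12 to 5.22 normalized CPM in psoas and 9.18 to 19.2 in soleus (log2 fold change 1.5, SE 0.27, edgeR adjusted p = 0.00372). In EDL, Id3 was 9.44 to 16.1 normalized CPM and overlapped soleus (log2 fold change of soleus against EDL 0.08). Psoas against EDL was -1.43 for Id3 (edgeR adjusted p = 0.0117), which was called only in 6 of the 24 alternative fits. Ccn2, which encodes connective tissue growth factor, was 2.69 to 3.96 normalized CPM in psoas and 6.7 to 35.0 in soleus (2.75, SE 0.59, adjusted p = 0.00982), and this call was made in 5 of the 24 alternative fits. In EDL, Ccn2 was 8.62 to 31.3 normalized CPM, within the range of soleus (log2 fold change of soleus against EDL -0.05). Psoas against EDL was -2.80 for Ccn2 (edgeR adjusted p = 0.0166), which was called only in 5 of the 24 alternative fits. Ccn2 overlaps a transcript on the opposite strand that has counts of its own. The fibro-adipogenic and tendon sums were likewise lower in psoas than in EDL. The sum of 6 macrophage genes was also lower, at 26.3 to 55.4 normalized CPM in psoas against 69.2 to 160 in EDL, and was 52.7 to 81 in soleus. Dcn is itself in the fibro-adipogenic list, and the part of these cells in the values of Dcn, Tgfbi, Id3, and Ccn2 was not tested. The Id3 call was lost without any 1 of the psoas libraries (adjusted p from 0.013 to 0.0229), with the terms for trimming (0.0228) and trimming and age (0.055), and in glmTreat (0.216). The Ccn2 call was lost without any single library other than EDL 3 and soleus 3 (from 0.013 to 0.0486). The untrimmed libraries gave log2 ratios of soleus to psoas of 1.5 for Id3 and 3.02 for Ccn2.

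**Figure D4:**
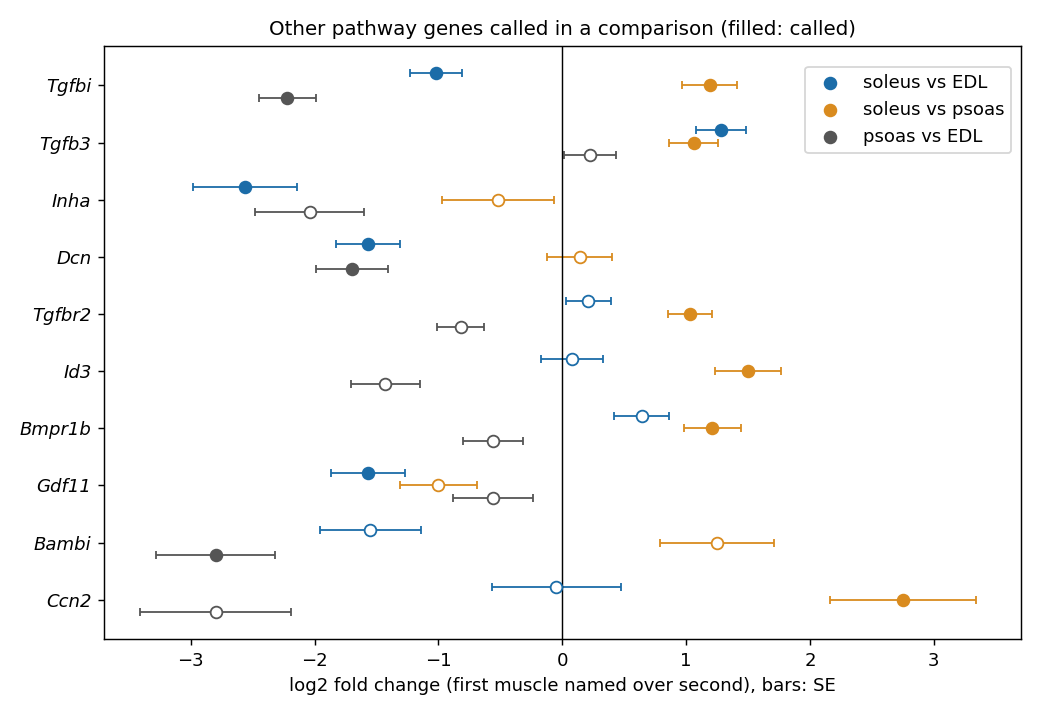
Log2 fold changes (horizontal axis, points, with SE as bars) of the 10 other pathway genes called in at least 1 comparison, from edgeR; filled points were called. Tgfbi is filled in all 3 comparisons, and the filled points of psoas against EDL (Tgfbi, Dcn, and Bambi) all lie below 0.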

How the data were processed

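The authors trimmed low-quality libraries (Trimmomatic 0.32), aligned read pairs of a stranded total RNA kit to GRCm38.p4 (TopHat2 2.1.1, per the submitters' processing notes), counted reads per gene, and deposited raw counts for 16112 genes, all of which reached 10 reads in 3 or more samples. The strand setting, the treatment of reads with several alignments, and the run of each library are not given in the sources used here. Groups follow the sample labels. The 3 comparisons of muscles were made in 1 fit over the 10 libraries with edgeR 4.0.16 (quasi-likelihood, TMM, no covariate; R 4.3.3), with Benjamini-Hochberg adjustment over all genes. SEs were derived from the F statistics, and intervals are 95% intervals of the fit. FPKM values were computed with DESeq2 1.42.0 from summed exon lengths of GENCODE M21 (GRCm38), which gave symbols for 16032 genes. limma 3.58.1 was used for limma-voom and for the animal code as a random effect. Tables and figures were made with Python 3.11.15, pandas 2.3.3, numpy 2.4.6, and matplotlib 3.10.9. The fit was tested on simulated data.

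The members and gene lists were chosen with earlier results of these data known. The text names the 9 members, every gene of the pathway list called in at least 1 comparison, and the uncalled activin subunit genes Inhba and Inhbb. It also names the 3 genes with a mean of at least 1 CPM best correlated (log2 CPM, prior count 2) with Mstn and with each other member that was called. The alternatives were DESeq2, limma-voom, glmTreat, other normalizations and filters, other thresholds, fits of the 2 muscles compared only, thinned counts, covariates (trimming, trimming with age of 44 days, age, sex, replicate, animal), and leaving out each library. Ratios were also taken with other gene lengths. Promoter windows are the RefSeq sequence of up to 250 bases before the annotated start. Precision is set by the total counts given above and the number of libraries.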

Additional observations from a re-analysis of the deposited data

How the results depend on the processing

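Over the alternatives to the 24 comparisons of single genes, leaving out a library aside, 312 results kept their direction and side of the threshold, 8 gained the call, 8 lost it, and 8 changed sign. The number of pathway genes called between soleus and EDL was 2, and it was 1 with glmTreat (a test against a 2-fold change), and between 2 and 3 when a library was left out. Between soleus and psoas it was 3, and it was 1 with glmTreat, and 2 to 3 without a library. It was 2 (Mstn and Acvr1b) with age as a covariate and with terms for trimming or for trimming with age. Between psoas and EDL it was 0, and it was 2 with DESeq2, with sex as a covariate (without soleus 3, whose sex is not given), and at an adjusted p of 0.05 with or without the limit on the fold, and 1 with DESeq2 size factors, in the fit of the 2 muscles only, and with terms for trimming or for trimming with age. It was 0 to 2 when a library was left out, with 2 (Fst and Smad3) without soleus 3. The cause of these changes was not tested, except that glmTreat asks for a larger change and the threshold of 0.05 for less evidence.

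The replicate numbers were checked as a pairing. Samples of the same number in EDL and psoas had correlations of their deviations from the group means of 0.248, 0.0881, and 0.503 over genes, so that not every pair was above 0.1, and EDL 1 correlated more with psoas 2 (0.298) than with psoas 1. The numbers were therefore not taken to pair the samples. Pairs with the same animal code had 0.187 (EDL 3 and soleus 2), 0.34 (psoas 1 and soleus 1), and 0.381 (psoas 3 and soleus 4). The same-numbered EDL and psoas libraries also have equal ages, so the check cannot exclude that some of them share a mouse. With the replicate block, 1 pathway gene was called between soleus and EDL (Mstn), 2 between soleus and psoas (Mstn and Fst), and 0 between psoas and EDL, and Acvr1b had edgeR adjusted p = 0.0156 and 0.0112 against EDL and psoas. Of the other pathway genes, the block ended the calls of Tgfbi (0.0283 against EDL and 0.0176 against psoas in soleus), Tgfb3 against psoas (0.0114), Inha (0.0155), Gdf11 (0.0197), Tgfbr2 (0.0198), Bmpr1b (0.0268), Dcn in psoas (0.0106), and Bambi (0.0182). With the animal code as a random effect, the counts were 2, 3, and 0.

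Sign changes were seen only for uncalled log2 fold changes near 0. Acvr2b in soleus against EDL (0.11) was -0.06 with the trimming term and -0.11 with thinned counts, and -0.35 to 0.29 without a library (-0.35 without soleus 2). Smad7 in that comparison (0.20) was -0.01 with the trimming term and -0.02 to 0.31 without a library. In psoas against EDL, Acvr2a (0.04) was -0.02 with thinned counts and -0.03 with upper-quartile normalization, and -0.03 to 0.15 without a library. Acvr1b (0.12) was -0.11 to 0.52 without a library, and Smad2 (-0.01) was 0.00 with DESeq2 and with its size factors, 0.09 with thinned counts, and -0.15 to 0.10 without a library. In soleus against EDL, the median over all genes was -0.05 on the log2 scale and -0.14 with upper-quartile normalization.

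The FPKM ratio of Acvr2a to Acvr2b was 13.6 in EDL and 7.49 in psoas with the longest transcript as length, and 24.4 and 13.4 without a length correction. The ratio of Smad2 to Smad3 without a length correction was 0.519 in EDL, 0.16 in psoas, and 0.471 in soleus.

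Counts of all genes called changed by more than 1.5 times with several fits. Between psoas and EDL, 340 genes were called, against 1095 with DESeq2, 865 with sex as a covariate, 757 and 605 with the trimming terms, 963 without EDL 3, 61 without psoas 2, and 27 with glmTreat. Between soleus and EDL, 929 were called, against 1520 with DESeq2, 1511 without EDL 3, 371 with the trimming term, and 185 with glmTreat. Between soleus and psoas, 917 were called, against 1382 with DESeq2, 475 with the term for trimming and age, and 176 with glmTreat.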
